A study of Mus musculus with 48 samples.

Results

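Phase II conjugation enzymes of the UGT, SULT and GST families were followed in mouse liver spheroids engrafted in the eye. The genes were taken from the authors' table of iris-corrected expression by their symbols, as every Ugt1a, Ugt2a, Ugt2b, Ugt3a and Ugt3b gene, every numbered Sult gene and every Gst gene of the alpha, kappa, mu, omega, pi, sigma, theta and zeta classes. This gave 53 members of 20702 genes, with 9 in the UGT1 family, 8 in UGT2, 2 in UGT3, 11 in SULT, 5 in GST alpha, 8 in GST mu, 3 in GST pi, 3 in GST theta and 4 in GST omega, kappa and zeta. The mu genes include the pseudogene Gstm2-ps1. A further 19 genes of the annotation matched by name but were not in that table, 9 of them without a count in any sample, and their highest count in a sample was 15. That table holds only genes that the authors kept on an average level above a minimum, so membership rests on this filter besides the symbols.

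Phase II enzymes attach a polar group to drugs, hormones, bile acids and bilirubin so that the product can leave the cell and be excreted. UDP-glucuronosyltransferases (UGTs) transfer glucuronic acid, cytosolic sulfotransferases (SULTs) transfer sulfate from PAPS, and glutathione S-transferases (GSTs) join reactive compounds to glutathione. In the liver they are carried mainly by hepatocytes, and several Sult and Ugt2b genes of the mouse differ between the sexes.

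The study placed spheroids of primary hepatocytes into the anterior chamber of the eye, where they attach to the iris and can be imaged through the cornea. Bulk RNA was sequenced by Smart-seq3 from 5 explants taken 2 months post-transplantation (post-tx), 3 naïve irises, 3 livers of donor mice, 3 preparations of isolated hepatocytes and 2 samples of spheroids kept in vitro. The labels give all groups the genotype WT Albino and the strain C57BL/6N, although the methods list other albino strains for the recipients, and they give no ages per sample. Each sample had 3 technical libraries, which were summed, and n counts samples. An explant is engrafted spheroids together with the iris around them, so it is a mixture. A hepatocyte preparation comes from collagenase perfusion and density centrifugation and can hold other liver cells, and in vitro spheroids were grown from such preparations in medium with insulin and dexamethasone. Nothing in the labels says which samples share an animal, so the p-values measure the spread between these samples. In bulk RNA, fewer cells of a type and less RNA per cell cannot be told apart.

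Many members lie side by side in the genome (mm10, coordinates of the count files). The 9 UGT1 genes are a single locus at chr1:88055388-88220002, where each gene has its own first exon and all share the later exons, with 1311 exonic bases common to all 9. The 8 UGT2 genes lie at chr5:86889767-87424203, and Sult1b1, Sult1d1 and Sult1e1 follow at chr5:87513339-87591594. Of the mu genes, 7 lie at chr3:107895821-108044894, and 4 alpha genes lie at chr9:78191966-78355788. The pi genes lie at chr19:4035407-4059446 and the theta genes at chr10:75774115-75834881.

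The promoters of 7 members are shown because the results turn on these genes: 3 Ugt1a genes with separate first exons, Ugt3a1, the neighbours Sult1d1 and Sult1e1, and Gstm3. Each run holds the 250 bases before the RefSeq start (GRCm38.p6), 5′ to 3′ on the strand of the gene, and capitals mark GCGTG, the core of the dioxin response element bound by the receptor AHR, in either orientation (CACGC on the other strand). Ugt1a1 is at chr1:88211709-88211958, Ugt1a9 at chr1:88070529-88070778, Ugt1a6a at chr1:88134559-88134808 and Ugt3a1 at chr15:9279579-9279828, all on the plus strand. Sult1d1 is at chr5:87569007-87569256, Sult1e1 at chr5:87591612-87591861 and Gstm3 at chr3:107969175-107969424, all on the minus strand. The RefSeq start of Ugt3a1 is 6510 bases downstream of the start in the count files.
Ugt1a1: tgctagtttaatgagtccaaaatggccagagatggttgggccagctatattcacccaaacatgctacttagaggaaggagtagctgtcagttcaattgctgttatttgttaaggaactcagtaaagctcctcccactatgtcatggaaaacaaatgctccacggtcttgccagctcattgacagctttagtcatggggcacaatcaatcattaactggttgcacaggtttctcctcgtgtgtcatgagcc
Ugt1a9: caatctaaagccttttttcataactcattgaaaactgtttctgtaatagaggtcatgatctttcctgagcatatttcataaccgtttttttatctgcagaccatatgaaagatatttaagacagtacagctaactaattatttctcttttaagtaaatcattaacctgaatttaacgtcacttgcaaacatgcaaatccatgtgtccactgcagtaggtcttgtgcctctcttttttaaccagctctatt
Ugt1a6a: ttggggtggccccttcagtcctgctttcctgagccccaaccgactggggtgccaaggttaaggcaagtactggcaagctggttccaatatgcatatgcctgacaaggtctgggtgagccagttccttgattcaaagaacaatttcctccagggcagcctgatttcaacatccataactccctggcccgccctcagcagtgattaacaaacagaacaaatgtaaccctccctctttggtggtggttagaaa
Ugt3a1: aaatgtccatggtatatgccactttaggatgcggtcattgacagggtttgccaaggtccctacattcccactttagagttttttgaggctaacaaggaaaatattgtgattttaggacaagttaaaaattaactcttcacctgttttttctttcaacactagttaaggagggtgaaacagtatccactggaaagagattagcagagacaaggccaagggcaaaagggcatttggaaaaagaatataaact
Sult1d1: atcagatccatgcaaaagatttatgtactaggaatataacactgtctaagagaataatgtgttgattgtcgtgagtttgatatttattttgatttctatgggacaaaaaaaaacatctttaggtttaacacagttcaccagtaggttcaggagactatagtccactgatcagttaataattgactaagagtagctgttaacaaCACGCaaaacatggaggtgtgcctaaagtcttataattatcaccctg
Sult1e1: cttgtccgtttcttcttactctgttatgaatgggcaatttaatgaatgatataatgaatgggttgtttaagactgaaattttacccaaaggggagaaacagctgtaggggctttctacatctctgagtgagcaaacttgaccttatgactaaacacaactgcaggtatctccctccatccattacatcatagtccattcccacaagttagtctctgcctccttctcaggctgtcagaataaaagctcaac
Gstm3: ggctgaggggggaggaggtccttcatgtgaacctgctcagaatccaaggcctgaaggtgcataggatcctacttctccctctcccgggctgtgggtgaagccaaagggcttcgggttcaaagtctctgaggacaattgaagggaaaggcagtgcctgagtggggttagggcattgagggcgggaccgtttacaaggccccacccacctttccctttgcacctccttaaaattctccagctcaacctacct

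Of the members, 44 had a RefSeq promoter. GCGTG stood in 8 of them (18.2%) against 28.2% of 32851 mouse promoters of the same length, and the 8 were Ugt1a8, Ugt1a5, Gstm5, Gstm1, Sult1d1, Gsta2, Gstp1 and Gstp3. The antioxidant response element, searched as TGACNNNGC on both strands, stood in 2 of 44 (4.55%), Gsta3 and Gstm5, against 10.2% of all promoters. These matches describe the letters of the windows only, and of the 7 windows shown only that of Sult1d1 held GCGTG.

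Samples held between 2718518 and 6789648 counts. The labelled tissues carried their markers. Summed TPM (counts scaled by exon length and by the total of the sample) of 8 hepatocyte markers was 12407 to 12898 in livers and 4727 to 6469 in explants, but also 1543 to 1822 in naïve irises, where all 8 were at 1 TPM or more. Summed TPM of 9 iris markers was 8818 to 9217 in irises and 542 to 556 in livers. The part that this crossing signal has in the low iris values of members was not tested. Y-linked Ddx3y was at 203 counts or more and Xist at 10 or fewer in all 16 samples. Liver 1 stood apart from livers 2 and 3 in several members, and results that rest on it are given with and without it.

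**Figure D1:**
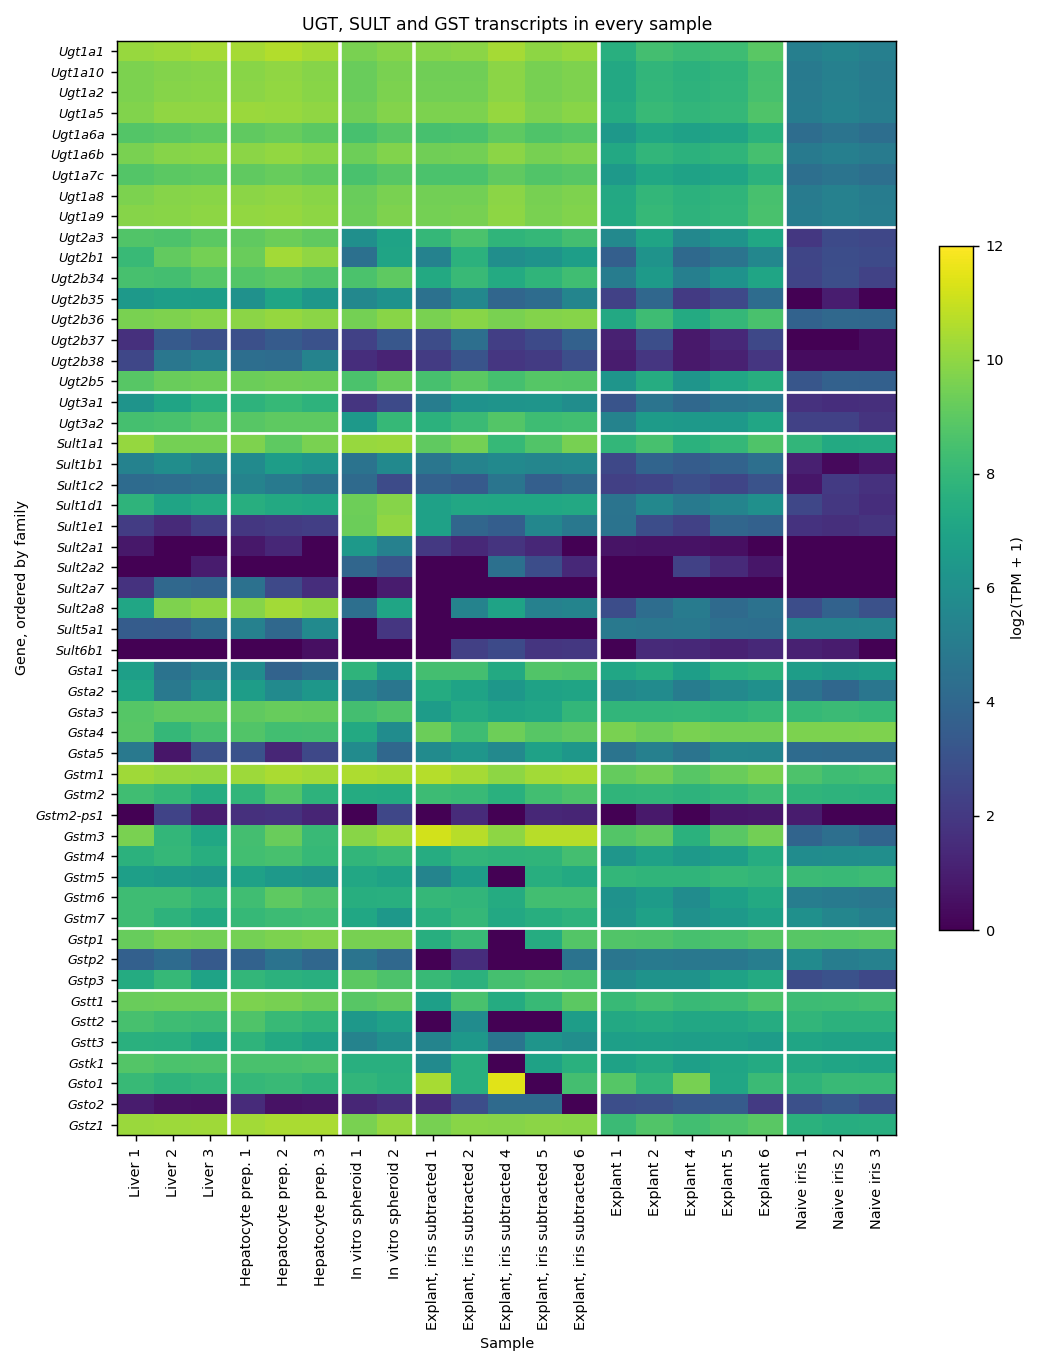
Expression of all 53 members in every sample, as colour of log2(TPM + 1), with rows ordered by family and columns by group. Explants appear both as TPM before subtraction of iris and after it. Most UGT rows are bright in livers, hepatocyte preparations and in vitro spheroids and dark in naïve irises, with Ugt3a1 (2.56 and 5.43 TPM) and Ugt2b38 (2.01 and 1.28 TPM) dark in in vitro spheroids too, while the rows of Gsta3, Gstp1 and Gstt1 differ less between groups before subtraction.

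Before any comparison, the iris part of the explants had to be taken off. The iris share behind the deposited corrected values was 82%, 68%, 81%, 72% and 59% in explants 1, 2, 4, 5 and 6 (72.4% ± 9.56, SD, n = 5), and the same formula was applied here to all explants because the deposited column of explant 4 had another form. The families differed in how much of the explant level was taken off. For 25 members less than 20% of the explant TPM was subtracted in the median explant, and for 8 members more than 80%. All 9 UGT1 and both UGT3 genes belonged to the first kind, with 8.81% for Ugt1a1 and 6.6% for Ugt3a1, as did Gstm3 (2.34%) and Gstp3 (5.81%). At the other end stood Gsta3 (83.5%), Gsta4 (84.1%), Gstm5 (85.9%), Gstp1 (87.7%), and Gstp2, Gstt2 and Sult5a1 (100%), whose corrected levels rest on a small remainder that is scaled up by the iris share. Corrected values stand on a scale of TPM after subtraction, with negative remainders set to 0.

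**Figure D2:**
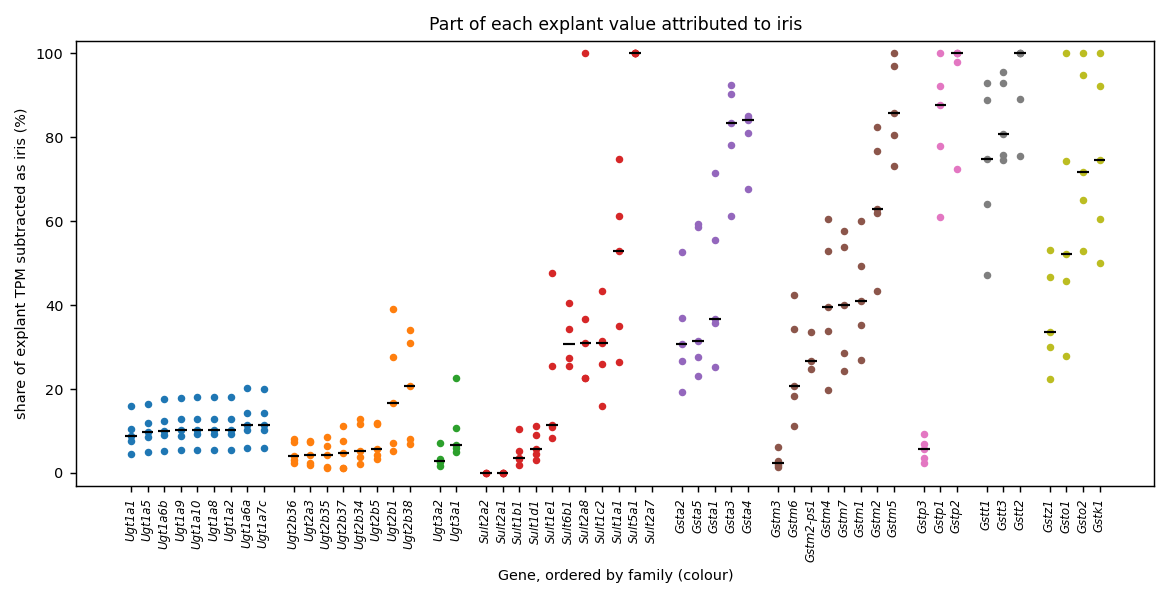
Percentage of the explant TPM subtracted as iris for each member (y axis), 1 point per explant, bars at the median, genes grouped by family. UGT points lie low, with 8.81% in the median for Ugt1a1, and points of Sult5a1, Gstp2 and Gstt2 reach 100%.

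Explants were compared with naïve irises to ask which conjugation genes an eye gained with the graft. Of 46 members tested by edgeR, 28 were higher in explants, where 6.16% of 16764 genes were called higher at an adjusted p under 0.05 and a log2 fold change past 1. None was called lower by edgeR, DESeq2 or limma-voom, where 0.316% of all genes were called lower, and 3 were lower at an unadjusted p under 0.05, where 9.96% of all genes were. All 17 UGTs tested rose, with median log2 fold changes of 2.97 in UGT1, 4.11 in UGT2 and 4.03 in UGT3, against 0.01 over all genes. The 9 UGT1 calls rest mostly on the same reads of shared exons. With Ugt1a counts above the lowest, as described with Ugt1a1, 6 UGT1 genes could be tested and 5 rose, and the 28 calls became 24. The 2 UGT2 genes, 4 SULTs and 1 mu gene not tested were too low to pass the filter. In the SULTs 3 of 7 rose, and in the GSTs 2 of 5 alpha, 4 of 7 mu, 1 of 3 pi, 0 of 3 theta and 1 of 4 omega, kappa and zeta genes, where 1 theta gene was lower at an unadjusted p under 0.05. Leaving out an iris or an explant removed 9 of the 28 calls, and they are named with their families. Among the 28, Gstp3, Sult1b1, Sult1e1 and Ugt2b35 were too low in irises and passed the filter only through the explants. As explants are the group where they are high, their calls are descriptions and no support.

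Naïve irises were compared with livers to give the level of each member without a graft. Of 50 members tested, 39 were lower in irises than in livers, where 19.8% of 16052 genes were called lower, and only Gsto2 was higher, where 32.1% of all genes were. Gsto2 passed the filter only through the irises. The 39 include members at or near no count in irises, such as Sult2a7, without any, and Ugt2b35, at 0.322% of its liver mean. These passed the filter only through groups of liver cells, where they are high, so such calls are descriptions. The median log2 difference of members was −4.65 against 0.27 over all genes. With Ugt1a counts above the lowest, 6 UGT1 genes were tested, all 6 were lower, and the 39 became 36. With the counts as deposited, in which UGT1 genes share reads, all 19 UGTs were lower, 6 of 9 SULTs, 3 of 3 theta, 5 of 7 mu, 2 of 3 pi, 2 of 5 alpha and 2 of 4 omega, kappa and zeta genes.

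Hepatocyte preparations were compared with livers to see what isolation had changed. Of 50 members, 2 were called higher, where 1.01% of all genes were, and none lower by edgeR, DESeq2 or limma-voom, where 4.52% of all genes were called lower, nor at an unadjusted p under 0.05, where 14.8% of all genes were lower. The median log2 difference was 0.39 against 0.02 over all genes, with 24 members higher at an unadjusted p under 0.05, where 13.8% of all genes were, and 9 of the 24 were the UGT1 genes that share reads. Summed TPM of 5 Kupffer cell markers was 101 to 200 in preparations and 204 to 371 in livers, and that of 4 sinusoidal endothelial markers 65.1 to 203 and 190 to 329. Their part in these differences was not tested. Both calls, Sult5a1 and Ugt3a1, depended on single samples, as given below.

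In vitro spheroids were compared with the hepatocyte preparations to ask what changed in culture. Of 50 members, 18 were lower, where 7.79% of 16052 genes were called lower, and 5 were higher, where 8.26% were. The median log2 difference was −0.78 against 0.03 over all genes. The lower calls were spread over UGTs (6 of 19), SULTs (4 of 9) and GSTs (8 of 22), while the higher calls were 3 SULTs and 2 alpha-class GSTs. Among the 3 SULTs, Sult2a1 and Sult1e1 passed the filter only through in vitro spheroids. With Ugt1a counts above the lowest 20 were lower. Hepatocyte markers summed to 10085 to 11057 TPM in in vitro spheroids and 12737 to 15488 in preparations, without overlap, and sinusoidal endothelial markers to 33.7 to 41.5 and 65.1 to 203. Higher in in vitro spheroids without overlap were the sums of Kupffer cell markers, at 469 to 511 against 101 to 200 TPM, of 5 macrophage markers, at 317 to 380 against 80.4 to 144, and of 4 stellate cell markers, at 284 to 316 against 113 to 168. Their part in the differences was not tested.

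The corrected explants were compared with livers, the tissue in situ, and with in vitro spheroids, which were kept in culture instead of the eye. Against livers 4 of 53 members were called higher, where 12.4% of 20283 genes were, and 7 lower, where 3.17% were. The 7 include Sult2a7, which passed the filter through the livers alone. They also include Sult5a1, at 0 in all 5 explants, and Gstt2, at 0 in 3, where subtraction left no positive remainder. The median log2 difference was −0.22 against 0.59 over all genes. Against in vitro spheroids 4 of 51 were higher, where 5.34% of 20182 genes were, and 3 lower, where 1.03% were. The 3 include Sult2a1, whose explant values are near single counts. The median was 0.06 against 0.49. These comparisons used limma on log2(TPM + 1), a scale that understates the change of low genes, and they share the same explants. Of these 11 and 7 calls, 8 and 6 were lost when some single sample was left out.

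**Figure D3:**
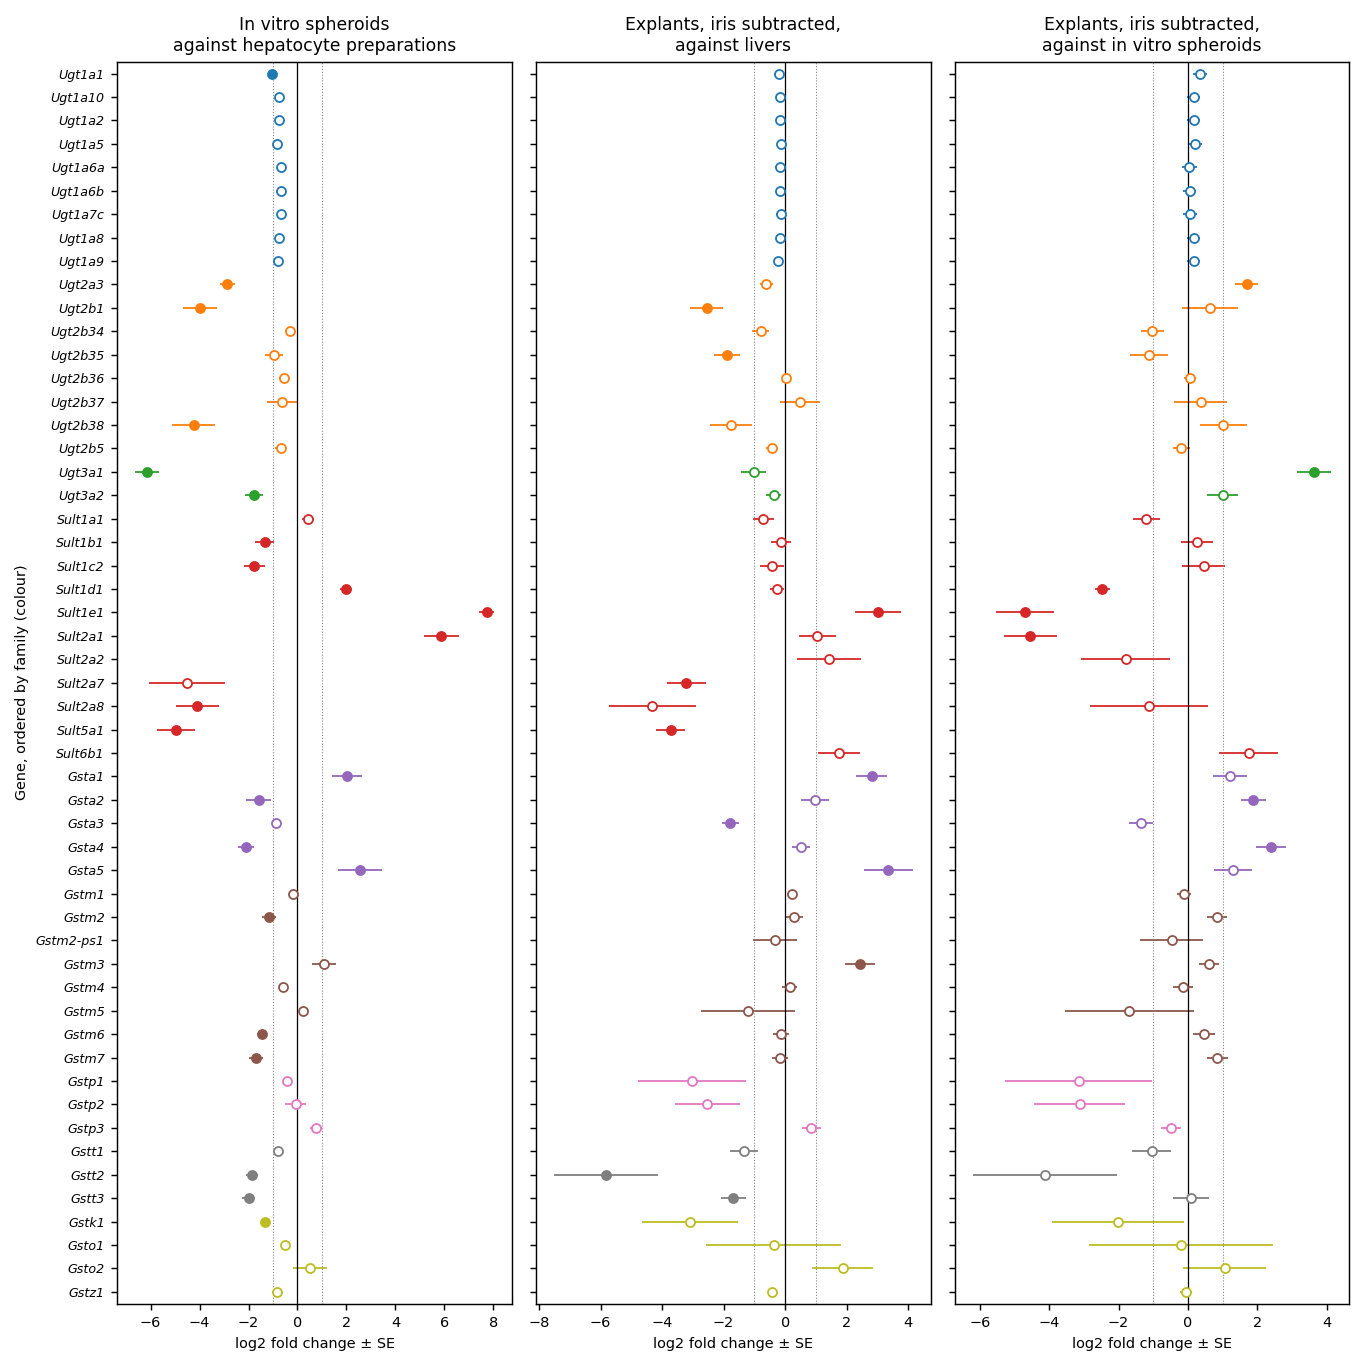
Log2 fold change (x axis) with its SE for each member in 3 comparisons, from edgeR in the left panel and limma on log2(TPM + 1) in the others. Filled points were called at an adjusted p under 0.05 and a log2 fold change past 1 (dotted lines). Sult1e1 lies at 7.72 in in vitro spheroids against hepatocyte preparations, at 3.01 in corrected explants against livers and at −4.70 in corrected explants against in vitro spheroids.

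Ugt1a1, the enzyme that glucuronidates bilirubin, had the highest level of the UGTs in livers. Its TPM was 1131, 1212 and 1351 in livers, 1340, 1549 and 1322 in hepatocyte preparations, 759 and 909 in in vitro spheroids, 35.3, 41.6 and 35.5 in naïve irises, and 192, 335, 288, 306 and 485 in explants. After subtraction the explants stood at 895, 967, 1354, 997 and 1129, overlapping with livers. The log2 difference of corrected explants from livers was −0.22 ± 0.15 (SE; limma adjusted p = 0.365), and that from in vitro spheroids 0.35 ± 0.19 (adjusted p = 0.368). In vitro spheroids were below the preparations without overlap, by −1.04 ± 0.17 (edgeR adjusted p = 0.000683), a call that fell under the fold threshold without hepatocyte preparation 2 (−0.97) or in vitro spheroid 1 (−0.84). Explants exceeded irises by 3.22 ± 0.33 (adjusted p = 0.000498).

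These totals do not separate the 9 genes, because a read on a shared exon was counted for every gene it touched. In every sample the counts of Ugt1a8 and Ugt1a2 were at or within 2 reads of the lowest of the 9, and Ugt1a10 lay 0 to 13 reads above it. For the other 6 genes the counts above that lowest value stand for reads outside the exons common to all 9, and using them was chosen after seeing the data. Ugt1a1 stood 1074, 984 and 1448 counts above the lowest in livers, 1240, 1423 and 981 in preparations, 421 and 355 in in vitro spheroids, 17, 14 and 13 in irises, and 164, 401, 347, 376 and 589 in explants. Ugt1a6a, which conjugates small planar phenols, stood 166, 176 and 245 above it in livers, 272, 259 and 151 in preparations, 278 and 340 in in vitro spheroids, 20, 26 and 21 in irises, and 37, 82, 66, 90 and 142 in explants. In in vitro spheroids Ugt1a1 was thus low and Ugt1a6a was not.

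With these counts, the UGT1 genes parted in culture. Ugt1a1 was lower in in vitro spheroids than in preparations by −1.97 ± 0.18 on the log2 scale (edgeR adjusted p = 1.77e-05), Ugt1a9 by −1.90 ± 0.53 (0.0183) and Ugt1a5 by −1.46 ± 0.44 (0.0254). Ugt1a6a (0.16 ± 0.22), Ugt1a6b (0.20 ± 0.25) and Ugt1a7c (0.15 ± 0.22) passed no test, with adjusted p of 0.601 to 0.654, and these 3 genes also share exonic bases with each other. Of the 2224 exonic bases of Ugt1a1, 1839 (82.7%) also lie in other genes and 385 in none. Its counts above the lowest, and the ratio below, can therefore hold reads of other genes. Between explants and irises Ugt1a1 (4.44), Ugt1a5 (5.42), Ugt1a6b (4.20), Ugt1a7c (1.86) and Ugt1a6a (1.67) rose, while Ugt1a9 at 5.03 had an adjusted p of 0.0511. Ugt1a5, Ugt1a6b and Ugt1a9 held few such counts in irises and passed the filter only through the explants, so these differences are descriptions. The ratio of Ugt1a1 to Ugt1a6a above the lowest count was 6.47, 5.59 and 5.91 in livers, 4.56, 5.49 and 6.5 in preparations, 1.51 and 1.04 in in vitro spheroids, and 0.85, 0.54 and 0.62 in irises. It was 4.43, 4.89, 5.26, 4.18 and 4.15 in explants, and 9.41, 6.08, 7.79, 5.39 and 4.6 after iris was subtracted. Explants overlapped with livers after subtraction (two-sided exact permutation test over 56 splits, p = 0.75, adjusted over 3 tests 0.75). Explants lay above the in vitro spheroids without overlap (p = 0.0952, the smallest that 21 splits allow, adjusted 0.286), and in vitro spheroids below preparations (p = 0.2, the smallest that 10 splits allow, adjusted 0.3), so these sample numbers cannot reach 0.05 in either.

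**Figure D4:**
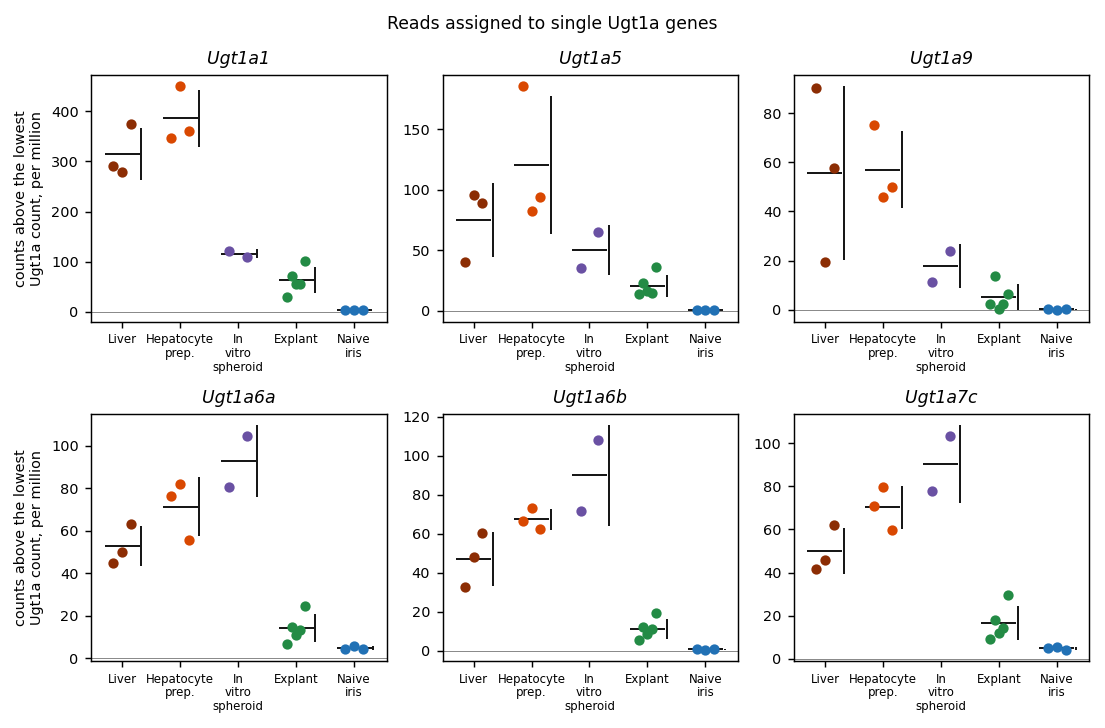
Counts of 6 UGT1 genes above the lowest Ugt1a count of the sample, scaled to the total count in CPM (y axis), by group, with points for samples, bars for the mean and vertical lines for the SD. In in vitro spheroids the points of Ugt1a1, Ugt1a5 and Ugt1a9 lie below those of the hepatocyte preparations, and the points of Ugt1a6a, Ugt1a6b and Ugt1a7c do not.

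UGT2 enzymes glucuronidate steroids, bile acids and many drugs, and their summed TPM was 2877 ± 501 (SD, n = 3) in livers, 3784 ± 549 (n = 3) in preparations, 2003 ± 548 (n = 2) in in vitro spheroids and 1933 ± 346 (n = 5) in corrected explants. Ugt2b36 was at 758, 811 and 917 TPM in livers and at 760, 942, 776, 874 and 897 in corrected explants, within 0.04 ± 0.13 of each other on the log2 scale (limma adjusted p = 0.863). Ugt2b5, at 465, 609 and 652 TPM in livers, was at 364, 505, 351, 457 and 437 in corrected explants (−0.44 ± 0.18, adjusted p = 0.138). These groups overlapped for both genes. Both also rose in explants against irises, by 4.23 ± 0.43 (edgeR adjusted p = 0.000467) and 3.70 ± 0.45 (0.00108).

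Ugt2b1 varied far more. It was at 283, 556 and 712 TPM in livers, 601, 1301 and 1044 in preparations, 20.7 and 128 in in vitro spheroids, and 38.7, 207, 60.6, 69.8 and 104 in corrected explants. In vitro spheroids and corrected explants both lay below every liver. The difference was −3.97 ± 0.69 for in vitro spheroids against preparations (edgeR adjusted p = 0.00123) and −2.56 ± 0.52 for corrected explants against livers (limma adjusted p = 0.0119). The second call was lost without liver 2 (−2.45, adjusted p = 0.064) or liver 3 (−2.28, 0.0704) and held without liver 1 (−2.94, 0.0199). Corrected explants and in vitro spheroids overlapped (0.64 ± 0.80, adjusted p = 0.679).

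Ugt2a3 fell in culture and stood higher in explants after subtraction of iris. Before subtraction the log2 difference of explants from in vitro spheroids was −0.15 (limma adjusted p = 0.803). Its TPM was 424, 399 and 502 in livers, 533, 624 and 531 in preparations, 62.1 and 124 in in vitro spheroids and 254, 386, 228, 253 and 342 in corrected explants, which lay between in vitro spheroids and livers without overlap. In vitro spheroids were lower than preparations by −2.87 ± 0.30 (edgeR adjusted p = 4.01e-05). Corrected explants exceeded in vitro spheroids by 1.69 ± 0.34 (limma adjusted p = 0.0257), a call lost without explant 2 (0.0516), explant 5 (0.0537), in vitro spheroid 1 (1.2, 0.236) or in vitro spheroid 2 (2.19, 0.0676), and their difference from livers did not pass the test (−0.62 ± 0.21, 0.0812). Of the rest, Ugt2b35 was lower in corrected explants, at 14.7 to 46.9 TPM against 89.8 to 104 in livers (−1.90 ± 0.43, adjusted p = 0.0172). Its call was lost without any 1 of the livers, with adjusted p of 0.0576 without liver 1, 0.0853 without liver 2 and 0.0847 without liver 3. Ugt2b38 was lower in in vitro spheroids than in preparations, at 2.01 and 1.28 against 18.1 to 40.4 TPM (−4.25 ± 0.87, edgeR adjusted p = 0.00335), and its near-identical neighbour Ugt2b37 makes its counts uncertain. Of the calls against irises, Ugt2b1 (2.74 ± 0.67, adjusted p = 0.0283) was lost without iris 1, 2 or 3 (0.116, 0.0995 and 0.111), and Ugt2b35 (4.93 ± 1.12, 0.0209) without iris 1 or 3 (0.0922 and 0.0928). Ugt2b35 passed the filter of that fit only through the explants, so its call is a description.

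Ugt3a1 and Ugt3a2 use sugars other than glucuronic acid as donors. Ugt3a1 was at 73.1, 126 and 194 TPM in livers and 217, 262 and 212 in preparations, but at 2.56 and 5.43 in in vitro spheroids, close to the 2.25, 1.92 and 2.04 of naïve irises. In corrected explants it was at 32.5, 68.6, 72.9, 75.5 and 58.2, all above the in vitro spheroids. The loss in culture was −6.14 ± 0.48 (edgeR adjusted p = 5.73e-06). Corrected explants were higher than in vitro spheroids by 3.65 ± 0.49 (limma adjusted p = 0.00618), which missed the threshold without in vitro spheroid 1 (3.22, 0.075) or in vitro spheroid 2 (4.07, 0.05). They overlapped with livers (−1.03 ± 0.39, adjusted p = 0.109). In preparations Ugt3a1 exceeded livers by 1.00 ± 0.29 (edgeR adjusted p = 0.0484), a call lost without liver 1 (0.69, 0.0752), liver 2 (0.99, 0.107) or any 1 of the preparations (0.91 to 1.06, 0.0565 to 0.134). Ugt3a2 fell less in culture, from 478, 521 and 511 TPM in preparations to 85.8 and 265 (−1.78 ± 0.38, 0.00453), and was at 206 to 445 in corrected explants.

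The SULT family as a sum was at 1757 ± 230 TPM (SD, n = 3) in livers, 2108 ± 50.4 (n = 3) in preparations, 2959 ± 525 (n = 2) in in vitro spheroids and 835 ± 167 (n = 5) in corrected explants. Its members moved in opposite directions. Sult1e1, the estrogen sulfotransferase, was at 3.37, 1.70 and 3.72 TPM in livers, 2.82, 3.20 and 3.62 in preparations and 2.42, 2.07 and 2.44 in irises, but at 625 and 1027 in in vitro spheroids. Explants held 22.8, 6.18, 3.93, 14.5 and 12.3 TPM, or 116, 14.4, 10.8, 45.8 and 26.7 after subtraction, every value above every liver and below both in vitro spheroids. The log2 differences were 7.72 ± 0.31 for in vitro spheroids against preparations (edgeR adjusted p = 5.49e-08), 3.01 ± 0.74 for corrected explants against livers (limma adjusted p = 0.0243) and −4.70 ± 0.83 against in vitro spheroids (0.0164). In the edgeR fit Sult1e1 passed the filter on low counts only through the in vitro spheroids, the group where it is high. Its edgeR call is therefore a description and no support.

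The first of these kept its call when samples were left out and the others did not. As Sult1e1 was tested there only through the in vitro spheroids, this adds no support. Without explant 5, liver 1, liver 2 or liver 3 the Sult1e1 difference from livers was 2.86, 3.11, 2.76 and 3.16, with limma adjusted p of 0.0522, 0.0722, 0.114 and 0.0825. That from in vitro spheroids was −5.06 (adjusted p = 0.128) without in vitro spheroid 1 and −4.35 (0.225) without in vitro spheroid 2. Against irises the explants were higher by 2.43 ± 0.61 (edgeR adjusted p = 0.0306), which was lost without explant 5 (0.0597) or iris 1, 2 or 3 (0.115, 0.12 and 0.111). In that fit Sult1e1 passed the filter only through the explants, so the call is a description.

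Sult1d1, a neighbour of Sult1e1 that sulfates catecholamines, shared the rise in culture. It was at 226, 128 and 162 TPM in livers, 185, 155 and 140 in preparations, 662 and 889 in in vitro spheroids, and 117, 143, 140, 141 and 152 in corrected explants. Among these groups only the in vitro spheroids stood apart, by 2.00 ± 0.25 from preparations (edgeR adjusted p = 0.000119) and by −2.47 ± 0.22 for corrected explants against them (limma adjusted p = 0.00132), whereas corrected explants overlapped with livers (−0.28 ± 0.23, adjusted p = 0.422). Sult1b1, the third neighbour, which acts on thyroid hormones, went the other way in culture, from 51.9, 102 and 77.6 TPM in preparations to 22.7 and 51.2 (−1.34 ± 0.38, edgeR adjusted p = 0.0209). That call was lost without preparation 2 (−1.10, 0.068), preparation 3 (−1.31, 0.0511) or in vitro spheroid 1 (−0.81, 0.173). Against irises, explants rose in Sult1d1 by 3.79 ± 0.48 (adjusted p = 0.00128) and in Sult1b1 by 4.30 ± 0.62 (0.00256). Sult1b1 passed the filter of that fit only through the explants, so its call is a description.

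The Sult2a enzymes, which sulfate hydroxysteroids and bile acids, divided in the same way. Sult2a1 was at 0.683, 0 and 0 TPM in livers, 0.686, 1.56 and 0 in preparations, 0 in all irises, 85.7 and 37.1 in in vitro spheroids, and 2.96, 1.57, 2.52, 1.5 and 0 in corrected explants. Its counts were 115 and 47 in in vitro spheroids and 1, 2 and 0 in preparations. It passed the filter on low counts only through the in vitro spheroids, the group where it is high, so its edgeR call (5.88 ± 0.71, adjusted p = 0.000215) is a description and no support. Corrected explants were lower than in vitro spheroids by −4.55 ± 0.77 (limma adjusted p = 0.0131). The call was lost without in vitro spheroid 1 (−3.95) or in vitro spheroid 2 (−5.14). Before subtraction the explants held close to a single count each, and explant 6 held none. This call therefore rests on the level of the in vitro spheroids and is likewise a description. Sult2a8, by contrast, was at 136, 826 and 999 TPM in livers, 895, 1311 and 1074 in preparations, 20.1 and 132 in in vitro spheroids, and 0, 40.2, 124, 37.7 and 41.8 in corrected explants. Both in vitro spheroids lay below all preparations, by a log2 difference of −4.10 ± 0.88 (edgeR adjusted p = 0.00455). All corrected explants lay below all livers, but the difference did not pass the test with liver 1 (−4.31 ± 1.42, adjusted p = 0.0705) or without it (−5.22, 0.0873). Sult2a7 had no count in any explant or iris and 2.33, 15.7 and 13.2 TPM in livers, and passed the filter through the livers alone. It was called lower in corrected explants, a call lost without liver 2 (limma adjusted p = 0.0627) or liver 3 (0.0635). As livers are the group where it is high, this call is a description and no support. Reads that map to several of these similar genes were left out of the counts, so the division of reads among Sult2a genes is uncertain.

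Sult1a1, the main phenol sulfotransferase, was at 715 to 1086 TPM in livers, 521 to 817 in preparations, 1141 and 1178 in in vitro spheroids and 264 to 741 in corrected explants, and no comparison with explants called it (adjusted p = 0.105 against irises, 0.191 against livers and 0.129 against in vitro spheroids). Sult5a1 differed between livers (10.3, 9.98 and 17.6 TPM) and preparations (37.7, 15.8 and 52.5), by 1.68 ± 0.47 (edgeR adjusted p = 0.0432). This call was lost without preparation 1 (0.0686) or 3 (1.25, 0.161) or liver 1 or 2 (0.107 and 0.108). In irises it was at 41.8, 41.8 and 43 and in explants at 19.5 to 27.5, so that subtraction left 0 in all 5. It was called lower in corrected explants than in livers, whereas before subtraction the explants lay above every liver. It was also lower in in vitro spheroids, at 0 and 2.74 (−4.97 ± 0.77, 0.000538).

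**Figure D5:**
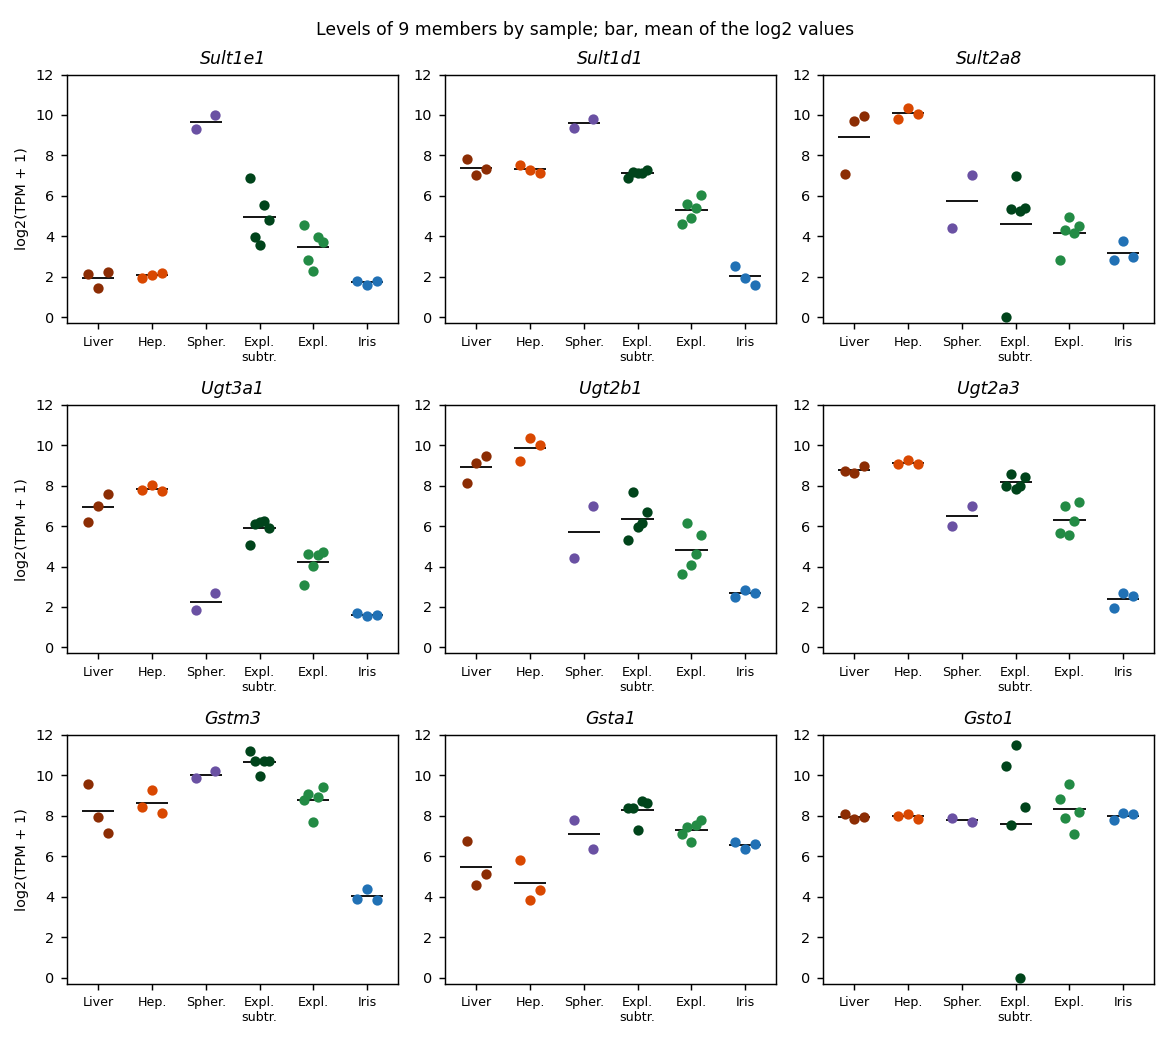
Log2(TPM + 1) of 9 members in every sample by group, with bars at the mean of the log2 values and explants shown after and before subtraction of iris. Sult1e1 is high in in vitro spheroids (625 and 1027 TPM), Ugt3a1 is low there (2.56 and 5.43 TPM), and Gsto1 scatters only among explants.

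Alpha-class GSTs conjugate products of lipid peroxidation and also bind bilirubin and steroids. Gsta1 was at 109, 22.8 and 33.8 TPM in livers, 55.7, 13.3 and 18.8 in preparations, 219 and 82.5 in in vitro spheroids, 102, 81.2 and 95.2 in irises, and 339, 339, 157, 428 and 398 in corrected explants. Corrected explants lay above all livers by 2.81 ± 0.51 (limma adjusted p = 0.00743), and by 3.46 (0.00358) without liver 1, the highest of the 3. Gsta5 followed, at 27.9, 0.655 and 6.75 TPM in livers against 54.9, 78.5, 49.5, 114 and 81.9 in corrected explants (3.36 ± 0.79, adjusted p = 0.0209), and by 4.36 (0.0071) without liver 1. This call was lost without liver 2 (2.30, 0.0568) or liver 3 (3.41, 0.0811). Gsta2, at 131, 28.1 and 58.8 TPM in livers, was not called (0.98 ± 0.46, 0.179) unless liver 1 was left out (1.54, 0.046).

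In culture Gsta1 (2.02 ± 0.61, edgeR adjusted p = 0.0267) and Gsta5 (2.55 ± 0.89, 0.0492) were higher than in preparations, and Gsta4, which detoxifies 4-hydroxynonenal, was lower, at 157 and 56.3 TPM against 421, 328 and 344 (−2.10 ± 0.32, 0.000483). Gsta1 lost its call without preparation 2 (0.0816), preparation 3 (0.0857) or in vitro spheroid 1 (1.26, 0.269), and Gsta5 without any 1 preparation (0.0666 to 0.133) or in vitro spheroid 1 (1.48, 0.405). Gsta2 fell by 1.58 on the log2 scale (SE 0.50, adjusted p = 0.034), lost without preparation 1 (0.0885) or 3 (0.075) or in vitro spheroid 1 (0.0955) or 2 (0.174). Reads shared by Gsta1, Gsta2 and Gsta5, which are close in sequence, were left out, so their separate counts are uncertain.

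Against in vitro spheroids the corrected explants were higher in Gsta4, at 632, 307, 642, 477 and 545 (2.41 ± 0.43, limma adjusted p = 0.0171), and in Gsta2, at 164, 122, 80.7, 121 and 126 against 39.4 and 25.3 TPM (1.89 ± 0.36, 0.0205). Gsta4 lost its call with the explant values as deposited (0.54, 0.917) and without in vitro spheroid 2 (1.67, 0.183), and Gsta2 without explant 5 (0.0517), in vitro spheroid 1 (0.0896) or in vitro spheroid 2 (0.219). Gsta4 was at 786, 791 and 808 TPM in irises and 639 to 766 in explants before subtraction, so its corrected level rests on 84.1% being taken off. Gsta3 was lower in corrected explants, at 99.8 to 247 against 455 to 542 TPM in livers (−1.79 ± 0.28, 0.00438), with 83.5% taken off, and its call was lost with the explant values as deposited (−3.18, 0.302). Against irises, explants rose in Gsta2 (1.34 ± 0.28, edgeR adjusted p = 0.015), which was lost without iris 1 (0.066) or 2 (0.072), and in Gsta5 (1.13 ± 0.30, 0.0401), lost without explant 2, 5 or 6 (0.0786, 0.0802 and 0.0578) or iris 1, 2 or 3 (0.129, 0.127 and 0.132).

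Among the mu-class enzymes, which detoxify electrophiles such as epoxides, Gstm3 stood out. It was at 765, 246 and 141 TPM in livers, 343, 612 and 283 in preparations, 924 and 1195 in in vitro spheroids and 13.7, 19.6 and 13.4 in irises. Explants held 436, 542, 203, 480 and 695 TPM before subtraction, and 2351, 1662, 1003, 1675 and 1672 after it, all above all livers. The difference from irises was 5.04 ± 0.48 (edgeR adjusted p = 0.000392). That of corrected explants from livers was 2.43 ± 0.49 (limma adjusted p = 0.011), 3.11 (0.00283) without liver 1 and 2.29 (0.0607) without liver 2, where the call was lost. Corrected explants overlapped with in vitro spheroids (0.62 ± 0.29, 0.293).

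Gstm1, the most abundant mu gene in livers, was at 1048 to 1234 TPM in livers, 1230 to 1414 in preparations, 1356 and 1469 in in vitro spheroids and 987 to 1622 in corrected explants (0.21 ± 0.16 against livers, limma adjusted p = 0.394). Gstm2, Gstm6 and Gstm7 were lower in in vitro spheroids than in preparations. Gstm2 lost that call without preparation 2 (−0.77, edgeR adjusted p = 0.0236) or in vitro spheroid 1 (−1.09, 0.0757). Against irises, Gstm4, Gstm6 and Gstm7 rose together with Gstm3, but their calls were lost when samples were left out. Gstm6 lost it without any 1 iris (0.0521 to 0.0622), and Gstm4 (0.78 to 1.11, 0.00997 to 0.133) and Gstm7 (0.86 to 1.27, 0.0508 to 0.155) without explant 2, 5 or 6 or any 1 iris. Gstm5 was at 283 to 299 TPM in irises and 82.5 to 107 in livers, and its corrected level reached 0 in explant 4.

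The pi, theta, omega, kappa and zeta classes were carried by iris as well as liver. Gstp1 was at 478, 461 and 482 TPM in irises, 600, 741 and 706 in livers and 364 to 459 in explants. In the median explant 87.7% of this was taken off. The remainder, scaled up by the iris share, gave corrected levels of 0 to 437. Gstp3 was unlike its neighbours, at 5.92, 7.24 and 5.13 in irises, 165, 262 and 122.8 in livers and 53.7, 71.4, 70.9, 121 and 160 in explants (4.08 ± 0.51 against irises, edgeR adjusted p = 0.00125). Gstp3 passed the filter of that fit only through the explants, so this call is a description. Its corrected level of 210 to 418 overlapped with livers (0.85 ± 0.31, limma adjusted p = 0.0913). Of the theta genes, which act on small halogenated compounds, 2 of 3 were lower in culture, Gstt2 at 82.7 and 117 TPM in in vitro spheroids against 408, 267 and 229 in preparations (−1.88 ± 0.24, edgeR adjusted p = 0.000161) and Gstt3 at 39.9 and 61 against 226, 157 and 117 (adjusted p = 0.000255). Gstt1, at 476 and 541 against 640 to 787 TPM, was short of the fold threshold (−0.79 ± 0.14, 0.00124).

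In corrected explants Gstt2 was at 0, 55.9, 0, 0 and 101 against 361, 305 and 293 TPM in livers, and Gstt3 at 24.2 to 83.5 against 136 to 196 (−1.69). Gstt2 was called at −5.82 ± 1.69 (limma adjusted p = 0.0465), a call lost without explant 1, 4 or 5 (0.0818, 0.0758 and 0.0865) or liver 1, 2 or 3 (0.138, 0.15 and 0.147). Gstt3 lost its call without liver 1, 2 or 3 (0.0931, 0.106 and 0.0685). Before subtraction these genes stood at 146 to 169 and 97.7 to 111 TPM in explants and 205 to 236 and 120 to 131 in irises.

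Gstz1, which isomerises maleylacetoacetate in tyrosine breakdown, was at 1178, 1202 and 1235 TPM in livers, 200, 178 and 184 in irises and 288, 423, 325, 402 and 492 in explants. It rose against irises by 1.16 ± 0.20 (edgeR adjusted p = 0.0071), or 0.98 without explant 6, under the fold threshold. Corrected explants lay below livers without overlap, at 749 to 955 (−0.44 ± 0.12, limma adjusted p = 0.0386), short of the fold threshold. Gstk1, a mitochondrial and peroxisomal enzyme, was lower in in vitro spheroids, at 189 and 191 against 373 to 400 TPM (−1.31 ± 0.14, edgeR adjusted p = 3.46e-05). Gsto1, a thiol transferase, was at 204 to 279 TPM in all samples other than explants, but at 462, 236, 750, 138 and 292 in explants, so that explants alone scattered. Gsto2 was higher in irises, at 6.58, 9.10 and 6.26, than in livers, at 0.898, 0.454 and 0.425 TPM (2.80 ± 0.56, 0.00067). It passed the filter only through the irises, the group where it is high, so this call is a description and no support.

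The genes that supply and serve these enzymes were read from lists of 47 genes. Against irises 13 of 43 tested were higher in explants by edgeR, where 6.16% of all genes were. They included Ugdh, which makes UDP-glucuronic acid (1.09 ± 0.21, adjusted p = 0.0104), the sulfate transporter Slc26a1 (3.00 ± 0.41, 0.00183), the amino acid conjugating enzymes Baat (4.81 ± 0.58, 0.00106) and Glyat (3.96 ± 0.44, 0.00064), the conjugate exporter Abcc3 (3.86 ± 0.54, 0.00222), and the regulators Hnf4a (4.42 ± 0.49, 0.000646) and Nr1i2 (3.21 ± 0.49, 0.00346). In in vitro spheroids 4 of 45 were higher and 12 lower than in preparations, where 8.26% and 7.79% of all genes were. The higher ones were Gss, the last step of glutathione synthesis (1.54 ± 0.23, 0.000361), the cystine transporter Slc7a11 (3.03 ± 0.50, 0.00083), Nfe2l2, the regulator known as NRF2 (1.35 ± 0.16, 8.26e-05), and Gusb, which cleaves glucuronides (1.47 ± 0.20, 0.000203). The lower ones included Gclm, a subunit of glutamate-cysteine ligase, the first step of glutathione synthesis (−1.03 ± 0.13, 0.000114), Nat8, which acetylates cysteine conjugates (−7.58 ± 0.70, 1.67e-05), the methyltransferase Inmt (−5.85 ± 0.27, 1.18e-07), Papss2, a PAPS synthase (−1.35 ± 0.23, 0.000925), and the nuclear receptor Nr1i3 (−1.41 ± 0.34, 0.00867).

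In corrected explants 4 of 46 were higher and 6 lower than in livers, where 12.4% and 3.17% of all genes were. Papss1, the other PAPS synthase, was at 127 ± 37.6 (SD, n = 5) against 24.9 ± 3.78 TPM (n = 3), a difference of 2.25 ± 0.32 (limma adjusted p = 0.00289), and Slc7a11 (3.41 ± 0.60, 0.00683), Ggt1, which starts the breakdown of glutathione outside the cell (4.28 ± 0.77, 0.00706), and the exporter Abcc1 (2.04 ± 0.50, 0.0238) were higher with it. All 4 were also higher in naïve irises than in livers, at 157 TPM for Papss1, 40.2 for Slc7a11, 45.9 for Ggt1 and 11.7 for Abcc1 against 24.9, 1.41, 0.604 and 1.16. Before subtraction explants held 147, 35.9, 42.5 and 10.6 TPM, with log2 differences from irises between −0.07 and 0 and no call. The part of iris RNA in these 4 differences was not tested. Lower were Slc35d1, a carrier of UDP-sugars (−1.57), Gclm (−1.09) and Gclc (−1.37), the subunits of glutamate-cysteine ligase, the microsomal transferase Mgst1 (−1.25), Abcc3 (−1.16) and the regulator Ppara (−2.23). Against in vitro spheroids, where 5.34% and 1.03% of all genes were called, 2 of 46 were higher, Papss1 (2.20 ± 0.47, adjusted p = 0.0307) and Ggt1 (4.06 ± 0.95, 0.0444), and 2 lower, Ugp2, which makes UDP-glucose (−1.80 ± 0.31, 0.0155), and the epoxide hydrolase Ephx1 (−1.13 ± 0.21, 0.021). Before subtraction, summed TPM of 5 macrophage markers was 605 to 1402 in explants, 408 to 448 in irises and 204 to 559 in livers. Other sums were lower in explants than in livers. Kupffer cell markers summed to 3.97 to 62.8 against 204 to 371, and sinusoidal endothelial markers to 4.33 to 22.1 against 190 to 329. The part of such cells in these differences was not tested.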

How the data were processed

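Bulk RNA of 48 libraries was measured, 3 technical libraries for each of 16 samples. Per the submitters' processing notes and methods, reads were aligned to mm10 with TopHat2, duplicates were removed (the methods name UMI-tool dedup), and the authors deposited counts per gene made with featureCounts, without strand, with reads that map to several places left out and a read counted for every gene it overlaps. The deposited TPM were made from these counts and exon lengths. The authors' corrected explant columns are on a score scale, TPM after subtraction of an iris share, and the share of each explant was solved from them. TPM were recalculated from the counts and checked against the deposited values, and the subtraction was repeated alike for all 5 explants. The mean of at least 1 TPM was required in the corrected comparisons.

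Counts were tested with edgeR 4.0.16 in R 4.3.3 (filterByExpr, TMM, quasi-likelihood test), explants against irises in a fit of their own and the other groups in a single fit without explants. Corrected explants were tested with limma 3.58.1 (trend) on log2(TPM + 1). P-values were adjusted by Benjamini-Hochberg over all genes tested, with calls at an adjusted p under 0.05 and a log2 fold change past 1. The total per sample was 2718518 to 6789648 counts, and intervals cover the spread between samples only. DESeq2 1.42.0, limma-voom, other normalizations, filters, pseudocounts, explant values and left-out samples were alternatives. On simulated counts, with 200 genes changed by a log2 fold change of 2, 200 were called for explants against irises (16536 genes), with 4 unchanged genes called. The simulation gave every gene the same dispersion, changed only genes above a minimum level and left out the varying iris share. It checks that the code runs as meant and cannot give the error rate in these explants. Members described with their values were those highest in livers or with the largest differences in each comparison, 33 in all. Members and lists were chosen with earlier results of these data known. The authors' per-library counts sum to the deposited samples in 100% of values, and samples of a group differed beyond sampling noise. Sequences come from RefSeq (GRCm38.p6).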

Additional observations from a re-analysis of the deposited data

Results flagged for a closer look

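Dixon's test was applied to the levels of members in the explants, 63 groups of 5 values in all, with a critical value of 0.71, and 2 groups had a sample far from the others, where chance alone flags about 1 group in 20. For Gstz1 after subtraction of iris, explant 1 was lowest at 749 (gap 0.784 of the range), with the other 4 explants at 911 to 955. For Sult2a1 before subtraction, explant 6 had no count, at 0 TPM (0.787 of the range), with the other 4 at 0.42 to 0.534 TPM, which is close to a single count.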

How the results depend on the processing

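Of the calls, 16 of 28 in explants against irises, 37 of 40 in irises against livers, 0 of 2 in hepatocyte preparations against livers, 16 of 23 in in vitro spheroids against preparations, and 0 of 11 and 0 of 7 in corrected explants against livers and in vitro spheroids were made under every alternative that gave a value. In the corrected comparisons the replicate block called no gene at all. The 0 of 11 and 0 of 7 therefore follow from that setting and say nothing particular to the members. The 1 member higher in irises than in livers became 4 with library size alone, 2 without a filter on low counts, 2 with technical library a alone and 2 with a replicate block, and 1 to 2 when samples were left out. Over all genes, 5157 of 16052 were higher in irises, 6976 with library size alone and 5137 with the block. They were 6103 of 29979 without a filter and 4264 of 13741 with library a. The 2 higher in preparations became 1 with RLE size factors, DESeq2, limma-voom, all 5 groups in a single fit or library a alone, 0 with library size alone or only the groups compared, 3 with the block, and 0 to 2 with samples left out. Over all genes, 162 of 16052 were higher there, 155 with RLE, 190 with DESeq2, 122 with limma-voom and 158 with the block. They were 89 with library size alone, 217 of 17064 with all groups, 88 of 13741 with library a and 50 of 12236 with only the groups compared. The 5 higher in in vitro spheroids became 3 to 6 with samples left out.

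In corrected explants against livers, the 4 higher and 7 lower became 2 and 2 with the values as deposited, 7 and 31 with TPM before subtraction, 0 and 0 with the replicate block, and 1 to 5 and 2 to 9 with samples left out. Against in vitro spheroids, the 4 higher and 3 lower became 1 higher as deposited, 25 lower before subtraction, 6 lower with 4 groups in a single fit, 0 and 0 with the block, and 0 to 4 and 1 to 5 with samples left out. Over all genes, the calls against livers went from 2505 and 643 of 20283 to 1136 and 295 of 20489 as deposited. They were 7340 and 1595 of 18432 before subtraction. Against in vitro spheroids, 1078 and 208 of 20182 became 408 and 80 of 20359 as deposited and 6398 and 1188 of 18442 before subtraction. With 4 groups in a single fit, 629 of 20182 were lower. The block called no gene in either comparison. Before subtraction, which leaves iris RNA in the explants, 34 of 99 log2 differences of members changed sign, 10 against livers and 24 against in vitro spheroids, and 18 of these were called before or after it. They were against livers Sult5a1 (0.91), Ugt2b36 (−1.81), Gstm5 (1.34) and Gstp2 (1.12), and against in vitro spheroids Gstm3 (−1.26), Gstm6 (−1.01), Sult1b1 (−1.51), Ugt2a3 (−0.15), Ugt2b36 (−1.80) and all 9 UGT1 genes, which share reads, from Ugt1a1 (−1.43) and Ugt1a5 (−1.55) to Ugt1a6b (−1.70). The other changes in these counts have a cause that was not tested.

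The labels give groups the same replicate numbers, and the deviations of same-numbered samples had correlations of −0.136 to 0.177. With so few samples per group these values cannot exclude shared animals. The numbers were not taken as a pairing, and the block was run as an alternative. In the comparisons with explants and in that of in vitro spheroids against preparations only numbers 1 and 2 are shared. With the block, explants against irises gave 24 higher calls, where 821 of 16764 genes were called higher. In vitro spheroids against preparations gave 5 higher and 18 lower, where 1213 and 1192 of 16052 genes were. Library size alone moved the median of all genes from 0.27 to 0.79 in irises against livers and from 0.03 to 0.26 in in vitro spheroids against preparations. If duplicate removal is taken to leave at most 2 reads per base, which no source used here states, undoing that limit kept 152 of 165 group levels within 1 SD. Dividing Ugt1a counts by unshared bases was not run, since shared-exon reads cannot be removed that way, and counts above the lowest were used instead.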
